A study of Mus musculus with 12 samples.

Results

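A set of 9 epithelial transcription factors was followed across basal and luminal cells of the young and the old mouse prostate: the ETS factors Elf3 and Ehf, the Krüppel-like factors Klf4, Klf5 and Klf6, the Grainyhead-like factors Grhl1, Grhl2 and Grhl3, and the Ovo-like factor Ovol1. They were chosen by name and found by gene symbol in each of the 12 expression tables. They are 9 of the 24054 genes in the tables, and 9 of the 14201 genes that passed the filter on low counts. The cells were sorted as basal or luminal epithelium from prostates of C57BL/6 mice, an inbred laboratory strain, at 3 months (young) or 24 months (old). No genotype or treatment other than age was given. The 4 groups were basal young, basal old, luminal young and luminal old, each with 3 libraries, and each library held cells pooled from 2 mice, so a value is a mean over 2 animals. Nothing in the labels says that the libraries of a group came from separate sorts, and the p values measure only the spread between these libraries.

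The prostate gland is lined by secretory luminal cells that rest on a layer of basal cells. ETS factors bind DNA through a winged helix-turn-helix domain, and Elf3 and Ehf belong to a small branch of the family found mainly in epithelia. Krüppel-like factors bind GC-rich and CACCC sequences through zinc fingers: Klf4 is known for barrier formation in skin and for reprogramming of somatic cells, Klf5 for growth of epithelial progenitors, and Klf6 as a gene that responds early to injury and growth factors. Grainyhead-like factors bind the regulatory DNA of junction genes such as E-cadherin and claudins. Ovol1 is a zinc-finger repressor known for holding back mesenchymal genes and progenitor growth in epithelia.

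Each library had between 20012668 and 27663428 counted reads, with 11697 to 13737 genes above 0. Reads came in copies: each distinct RNA fragment was estimated to have been read 16 to 73 times, which left 378951 to 564922 fragments in the basal young, 669232 to 1443424 in the basal old, 744441 to 870116 in the luminal young and 543502 to 728631 in the luminal old libraries. The basal marker Krt5 lay between 2148 and 2688 CPM (counts scaled for library size and composition) in basal and between 6.88 and 12.4 in luminal libraries. The luminal keratin Krt8 lay between 3867 and 5976 in luminal libraries but also between 2182 and 2788 in basal ones. All 12 basal markers were lower and all 13 luminal markers higher in luminal cells at both ages. The 10 fibroblast markers summed to 1240 to 1630 CPM in basal and 49.7 to 413 in luminal libraries, a gap carried by Dcn, at 1368 against 82.1 CPM at 3 months, while their median log2 difference was 0.30 and Dcn was the 1 that passed. Seminal vesicle genes summed to 133000 to 212000 CPM in luminal libraries. In bulk RNA, a change in the share of a cell type and a change of RNA per cell cannot be told apart. On the second principal component of the tested genes (8.27% of the variance), basal young replicate 1 lay at 159 and the other libraries between -43.3 and 28.4, and results that change without it are given as such.

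The promoters of a pair of factors are shown because Klf4 and Klf6 were both higher in basal cells and differed in how far. The RefSeq table holds a promoter for 5 of the 9 factors, of which the 250 bases before the transcript start were searched on both strands for 7 motifs. The GC box was searched as the letters GGGCGG, the ETS site, which family members read through its central purine core, as CCGGAAG, and the AP-1 site, where Fos and Jun dimers bind, as TGAGTCA. The TATA box, which positions the polymerase, was searched as TATAAA. The longer motifs were the CACCC box of Krüppel-like factors as CCACACCC, the Grainyhead site as AACCGGTT and the cyclic AMP response element (CRE) as TGACGTCA. The windows are those of Klf4, at chr4:55532476-55532725 on the minus strand, and of Klf6, at chr13:5861239-5861488 on the plus strand of GRCm38.p6 (RefSeq). Both are given 5′ to 3′ with the GC boxes in capitals.
Klf4: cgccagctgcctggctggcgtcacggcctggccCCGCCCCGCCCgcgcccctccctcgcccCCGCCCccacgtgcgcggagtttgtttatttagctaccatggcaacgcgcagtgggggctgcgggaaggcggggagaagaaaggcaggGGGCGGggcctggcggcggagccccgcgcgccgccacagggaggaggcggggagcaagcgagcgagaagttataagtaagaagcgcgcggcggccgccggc
Klf6: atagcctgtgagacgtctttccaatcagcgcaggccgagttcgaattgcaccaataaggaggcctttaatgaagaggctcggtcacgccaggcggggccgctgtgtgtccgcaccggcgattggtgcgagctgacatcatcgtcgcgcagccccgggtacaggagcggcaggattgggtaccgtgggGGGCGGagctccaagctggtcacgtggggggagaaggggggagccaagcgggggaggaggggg
The Klf4 window held 4 GC boxes, 2 of which share 1 base, and 74% G and C. The Klf6 window held 1 GC box and 64.8% G and C, against a median of 52.4% over 32817 promoter windows of the same length. A GC box, the classic site of Sp factors that Krüppel-like factors can also bind, was found in 32.7% of those windows. The window of Elf3 (57.2% G and C) and 1 of the 2 windows of Grhl1 held no GC box. The other Grhl1 window held 2 (75.6% G and C), and the window of Grhl3 held 1 (56%). None of the factors' windows held a match to the other motifs, whose shares of all windows were 3.19% for the CACCC box, 6.9% for the ETS site, 0.116% for the Grainyhead site, 4.46% for the AP-1 site, 1.55% for the CRE and 12.4% for the TATA box. These are matches of letters and not measured sites.

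Levels of most of the factors differed by cell type. At 3 months, Elf3, Ehf and Grhl2 were higher in luminal cells, and Klf4, Klf5, Klf6, Grhl3 and Ovol1 were lower. These 8 of 9 passed the test (edgeR's quasi-likelihood test, Benjamini-Hochberg adjusted p under 0.05), 3 higher and 5 lower. Over all tested genes 37.6% passed, 19% higher and 18.6% lower. Grhl3 passed the filter on low counts through its basal reads. On counts divided by the reads per fragment it was too low to be tested, and 7 of the remaining 8 passed. On those counts, 5988 of the 11201 genes tested passed. The luminal and basal libraries did not overlap for the 8 factors called in the first test, Grhl3 among them, as for 51.6% of all genes. At 24 months, 5 of 9 passed: Elf3 and Ehf were higher, and Klf4, Klf6 and Ovol1 were lower in luminal cells. There 35.4% of all genes passed, 15.7% higher and 19.7% lower. Klf5 and Grhl3 also did not overlap at 24 months without passing, so that 7 of 9 factors did not overlap, against 53.1% of all genes. Whether the number of factors called differed between the ages was not tested as such. The test of each factor's difference in age response is given further on.

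**Figure D1:**
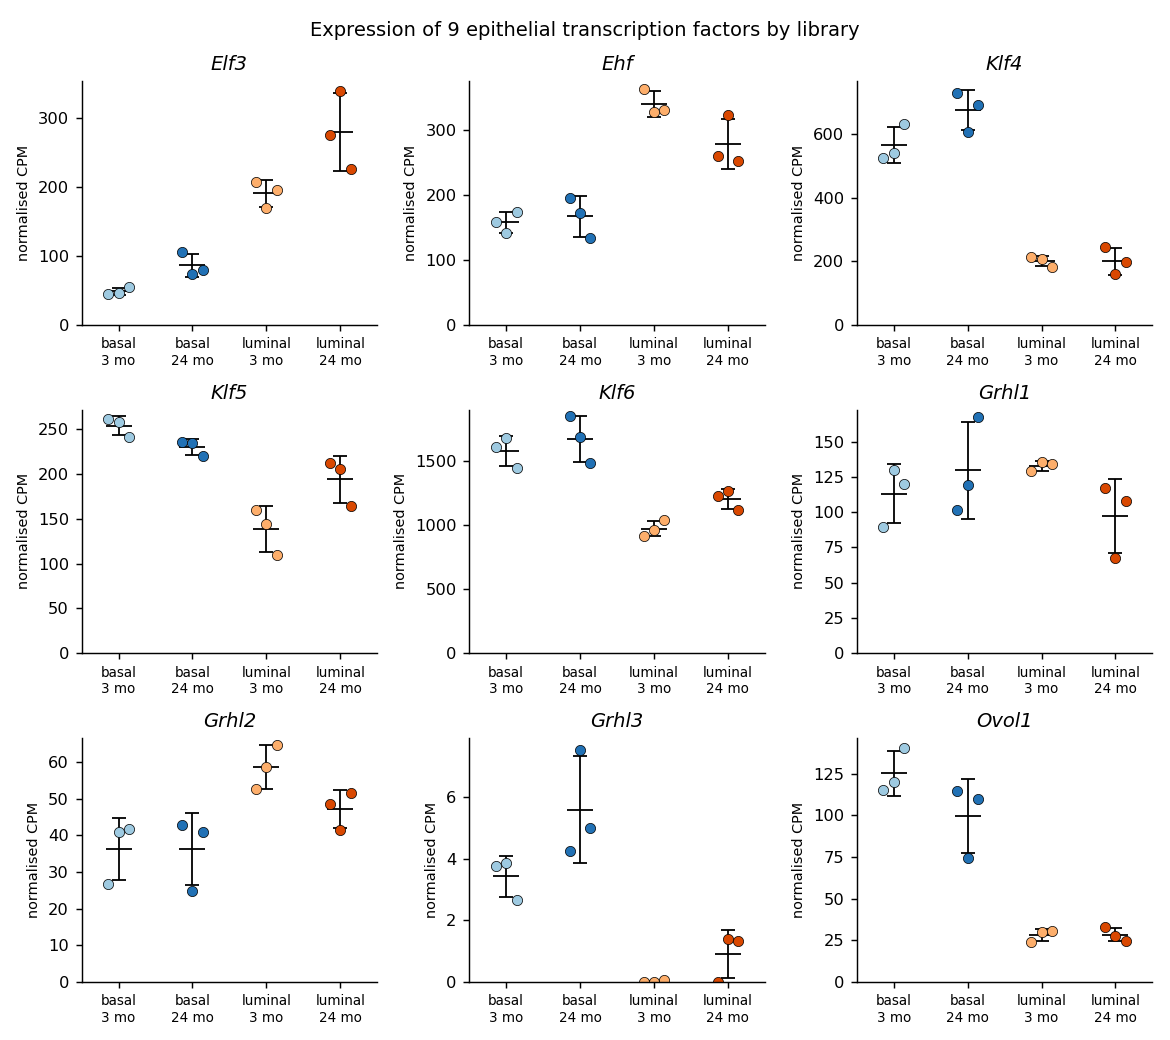
Normalised CPM of the 9 factors (y axis, linear, from 0) in each of the 12 libraries, by cell type and age in months (x axis). Points are libraries, the horizontal line is the group mean and the whiskers are 1 SD (n = 3). Elf3 and Klf5 are the factors whose 4 groups are all apart, Elf3 from 45.1 to 54.7 in basal young to 226 to 339 in luminal old libraries, and Grhl3 stays under 8 CPM throughout.

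Elf3 (chr1:135253575-135258568, GRCm38), an epithelial activator also known to respond to inflammatory signals, was the more luminal of the ETS pair. Its normalised counts were 45.1, 46.5 and 54.7 CPM in the basal young libraries and 207, 169 and 196 in the luminal young ones. At 24 months they were 106, 74.1 and 78.9 in basal and 276, 339 and 226 in luminal libraries. The lowest luminal library was above the highest basal one at each age. Elf3 was 3.91-fold higher in luminal cells at 3 months (log2 1.97 ± 0.18 SE, edgeR adjusted p = 5.65e-07) and 3.25-fold higher at 24 months (1.70 ± 0.18, adjusted p = 2.57e-06). The 4 groups stood in the order luminal old, luminal young, basal old, basal young, and no neighbours overlapped. In basal young libraries these levels rest on 17.4 to 26.9 estimated fragments each, against 145 to 207 in luminal ones.

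Ehf (chr2:103263433-103303278), a related factor of glandular epithelia, was luminal as well but less so. Its level was 159, 141 and 174 CPM in basal young and 364, 327 and 330 in luminal young libraries. At 24 months the basal libraries held 195, 172 and 133 CPM and the luminal ones 259, 323 and 252. Ehf was 2.16-fold higher in luminal cells at 3 months (log2 1.11 ± 0.15, edgeR adjusted p = 3.23e-05) and 1.67-fold higher at 24 months (0.74 ± 0.15, adjusted p = 0.00124). The basal groups overlapped each other, and the luminal groups did not.

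On a scale that takes transcript length into account (TPM, the length-corrected unit of RSEM), the balance between the 2 ETS factors turned. The ratio of Elf3 to Ehf TPM was 0.725 ± 0.053 (SD, n = 3) in basal young and 1.28 ± 0.087 in luminal young libraries. It was 1.2 ± 0.18 in basal old and 2.31 ± 0.22 in luminal old libraries. Within each cell type, the lowest old library (1.01 in basal, 2.05 in luminal) was above the highest young one (0.77 and 1.35). This ratio was looked at after the levels were known and is given without a test.

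**Figure D2:**
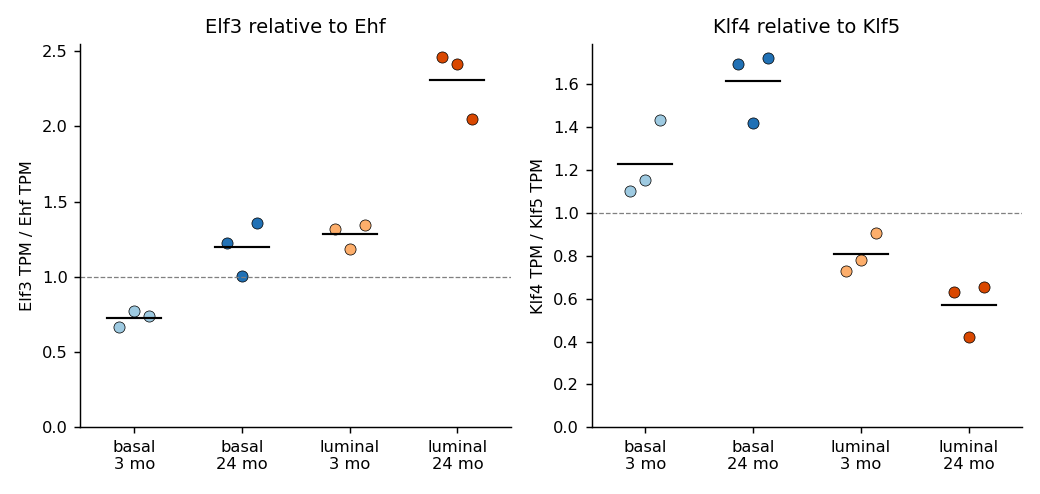
Ratio of Elf3 to Ehf (left) and of Klf4 to Klf5 (right), each as TPM over TPM (y axis, linear, from 0), in the 12 libraries by cell type and age. Points are libraries, bars are means of 3 and the dashed line marks equal TPM. The Elf3 to Ehf ratio lies higher at 24 months in both cell types, while the Klf4 to Klf5 ratio lies above 1 in basal and below 1 in luminal libraries.

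Among the 26 ETS genes listed, Elf3 took 2.71% of the family's TPM in basal young and 16.3% in luminal young cells. In old cells its share was 4.2% in basal and 22% in luminal cells. Ehf took 3.73% and 3.55% in basal young and old, and 12.7% and 9.52% in luminal young and old cells. Ets2, a broadly expressed family member, held the largest share in each group, from 27.1% in luminal young to 44.7% in basal old cells. Elf5, a factor of secretory epithelia, moved from 19.3% in luminal young to 8% in luminal old cells and was at 0.0919% and 0.0823% in basal cells. Ets1, a family member common in lymphocytes and endothelium, held 15.2% and 13.3% in basal cells and 0.309% and 0.562% in luminal cells.

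Of the 24 other ETS factors, 19 were tested, and most of those that passed went the opposite way from Elf3 and Ehf. At 3 months 3 passed as higher in luminal cells and 9 as lower; at 24 months these were 2 and 9. The median log2 difference was -1.22 and -1.01, against 0.19 and 0 for all tested genes. Ets1 was lower in luminal cells, at 9.40 CPM against 749.5 at 3 months (log2 -6.32 ± 0.35, edgeR adjusted p = 3.41e-09). Etv3, a repressor, was lower by 2.26 on the log2 scale and Ets2 by 1.22 (adjusted p = 4.65e-09 and 1.1e-06). Elf5 was higher, at 254.5 CPM against 1.82 (7.16 ± 0.56, adjusted p = 1.22e-07). No basal cell change with age passed in this list, and in luminal cells Etv3 and Ets2 rose with age (0.69 ± 0.12 and 0.52 ± 0.12, edgeR adjusted p = 0.00946 and 0.0367). Elf5 was at 113.4 CPM in luminal old cells, which did not pass against the luminal young level (log2 -1.17 ± 0.42, adjusted p = 0.263).

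**Figure D3:**
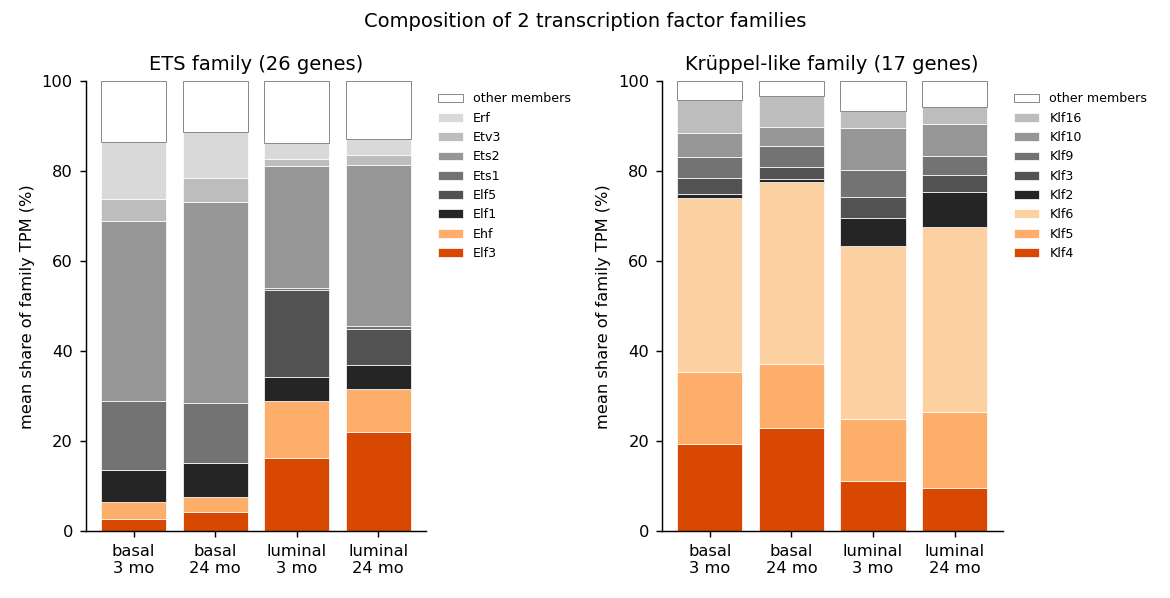
Mean share (n = 3 libraries) of each gene in the summed TPM of the ETS family (left, 26 genes) and the Krüppel-like family (right, 17 genes), in percent on the y axis, by cell type and age. Orange segments are the factors described here, grey segments other members and white the remainder. Elf3 and Ehf take more of the ETS sum in luminal cells, and Klf6 takes 38.4% to 41.1% of the Krüppel-like sum in each group.

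The 3 Krüppel-like factors were basal, in the order Klf4, Klf5, Klf6 of their difference at 3 months. Klf4 (chr4:55527143-55532466) was at 526, 541 and 631 CPM in basal young and 213, 206 and 182 in luminal young libraries. In old cells it was at 728, 608 and 692 in basal and 244, 159 and 196 in luminal libraries. Each basal library was above each luminal one. Klf4 was 2.82-fold lower in luminal cells at 3 months (log2 -1.50 ± 0.15, edgeR adjusted p = 1.41e-06) and 3.39-fold lower at 24 months (-1.76 ± 0.15, adjusted p = 3.75e-07).

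Klf5 (chr14:99298691-99315036) differed by cell type at 3 months and less so at 24 months. Its level was 262, 258 and 242 CPM in basal young and 160, 145 and 110 in luminal young libraries. At 24 months it was 236, 235 and 221 CPM in basal and 213, 206 and 164 in luminal libraries. No luminal library reached the lowest basal library of its age. The difference was 1.84-fold at 3 months (log2 -0.88 ± 0.14, edgeR adjusted p = 0.000192), and at 24 months it did not pass (-0.25 ± 0.14, adjusted p = 0.204). On log2(TPM + 1), with limma, the 24-month difference passed (-0.46, adjusted p = 0.019), a scale on which the median of all genes also moved by -0.21.

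Klf6 (chr13:5861482-5870394) was the most abundant of the 9 factors, per length as well. Its level was 1606, 1674 and 1447 CPM in basal young and 917, 960 and 1036 in luminal young libraries. In old cells it was 1847, 1683 and 1485 in basal and 1226, 1265 and 1118 in luminal libraries. No basal library overlapped a luminal one of either age. The difference was 1.62-fold at 3 months (log2 -0.70 ± 0.10, edgeR adjusted p = 7.56e-05) and 1.39-fold at 24 months (-0.47 ± 0.10, adjusted p = 0.00208).

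Per length, the makeup of the Krüppel-like family differed in its second place. Klf6 took 38.7% and 40.4% of the TPM of the 17 genes in basal young and old, and 38.4% and 41.1% in luminal young and old cells. Klf4 took 19.5% and 22.9% in basal but 11.1% and 9.53% in luminal cells. Klf5 took 15.9% and 14.3% in basal and 13.9% and 16.9% in luminal cells. The ratio of Klf4 to Klf5 TPM was 1.1 to 1.43 in basal young and 1.42 to 1.72 in basal old libraries. It was 0.731 to 0.907 in luminal young and 0.423 to 0.656 in luminal old libraries. Klf4 thus led Klf5 in each basal library and Klf5 led Klf4 in each luminal one, a description without a test.

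The other Krüppel-like and the Sp factors, which share the zinc-finger fold, gave a mixed picture. Of 11 tested Krüppel-like factors, 3 passed as higher in luminal cells and 2 as lower at 3 months, and 2 each way at 24 months. Their median log2 difference was -0.25 at 3 months and 0.07 at 24 months. Klf2, a factor best known from endothelium, was higher in luminal cells, at 63.9 CPM against 13.4 at 3 months (log2 2.25 ± 0.42, edgeR adjusted p = 0.000597). Klf16 was lower, at 58 against 186.5 CPM (-1.69 ± 0.20, adjusted p = 9.26e-06). Of 7 tested Sp factors, 1 was higher and 4 lower at 3 months, among them Sp1 (-0.72 ± 0.13, adjusted p = 0.000346), and at 24 months only Sp1 passed (-1.11 ± 0.13, adjusted p = 6.89e-06). None of these genes passed with age in either cell type.

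Early response genes moved in the same direction as Klf4 and Klf6 between cell types. Of 30 immediate-early genes, which are induced within minutes of a stimulus such as tissue dissociation, 23 passed as lower in luminal cells at 3 months and 4 as higher, with 25 and 3 at 24 months. They summed to 20100 to 20900 CPM in basal young, 24000 to 27600 in basal old, 10300 to 10800 in luminal young and 11900 to 12300 in luminal old libraries. Of those lower in luminal cells at 3 months, Cyr61 (log2 -2.32 ± 0.11) and Ier3 (-2.42 ± 0.12) had the smallest adjusted p (edgeR, 7.45e-10 and 1.01e-09). The part of these genes, and of the fibroblast markers above, in the levels of the Krüppel-like factors was not tested.

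The Grainyhead-like factors differed in level more than by cell type. Grhl1 (chr12:24572283-24617391), known for desmosomal cadherins in skin, made up 74.1% to 79.6% of the TPM of the 3 genes in each group. Its counts were 89.7, 130 and 120 CPM in basal young, 102, 119 and 168 in basal old, 129, 136 and 134 in luminal young and 117, 67.4 and 108 in luminal old libraries. All neighbouring groups overlapped. Grhl1 did not pass between cell types at 3 months (log2 0.23 ± 0.22, edgeR adjusted p = 0.44) or at 24 months (-0.41 ± 0.22, adjusted p = 0.164). The sign at 3 months was negative on the TPM scale.

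Grhl2 (chr15:37233036-37363569), the family member known for E-cadherin and claudins, stood at 26.6, 40.8 and 41.6 CPM in basal young and 52.8, 58.7 and 64.6 in luminal young libraries. The old libraries held 43, 24.9 and 41.1 CPM in basal and 48.5, 41.4 and 51.6 in luminal cells, and these overlapped. Grhl2 was 1.61-fold higher in luminal cells at 3 months (log2 0.69 ± 0.24, edgeR adjusted p = 0.0369) and did not pass at 24 months (0.38 ± 0.24, adjusted p = 0.255). The 3-month call was lost without basal young replicate 1 (adjusted p = 0.133), without luminal young replicates 1, 2 or 3 (0.0511, 0.113 and 0.115) and on the TPM scales (0.21 and 0.22 on the log2 scale, limma adjusted p = 0.555 and 0.556).

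Grhl3 (chr4:135541888-135573630), known for closing the skin barrier and the neural tube, was near the limit of detection. It was at 3.77, 3.86 and 2.67 CPM in basal young and 4.24, 7.54 and 4.99 in basal old libraries. In luminal cells it was at 0, 0 and 0.043 in young and 0, 1.38 and 1.32 in old libraries. These stand for 1.09 to 2.23 fragments per basal young library, 4.87 to 6.35 per basal old library and at most 1 per luminal library. With 3 fragments put into the luminal young group, which is 1.22 CPM, Grhl3 was 2.82-fold lower in luminal than in basal cells at 3 months. The basal young mean of 3.43 CPM rests on 4.77 fragments, and 3 fragments there give 2.27 CPM, so 2.82 is not a firm lower bound. edgeR's test of the reads, not of this ratio, passed (adjusted p = 0.0101). At 24 months the luminal mean of 0.901 CPM lay under the limit of 1.58 CPM that 3 fragments give, against 5.59 in basal cells, and the difference did not pass in edgeR (adjusted p = 0.225) but did with limma on log2(TPM + 1) (adjusted p = 0.00209).

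Of 3 further genes related to Grainyhead, Tfcp2l1 passed. It was higher in luminal cells at 3 months, at 151.7 against 22.5 CPM (log2 2.76 ± 0.28, edgeR adjusted p = 1.69e-06), and at 24 months (2.26 ± 0.27, adjusted p = 1.15e-05).

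Ovol1 (chr19:5549136-5560646) was among the factors with the largest fold between cell types. It stood at 115, 120 and 141 CPM in basal young and 24, 30.1 and 30.6 in luminal young libraries. In old cells it stood at 115, 74.4 and 110 in basal and 32.6, 27.5 and 24.7 in luminal libraries. The basal and luminal ranges were well apart, and the 2 luminal groups overlapped. Ovol1 was 4.44-fold lower in luminal cells at 3 months (log2 -2.15 ± 0.20, edgeR adjusted p = 6.93e-07) and 3.53-fold lower at 24 months (-1.82 ± 0.20, adjusted p = 3.82e-06). Its relative Ovol2 was low, and was higher in luminal than in basal cells at 24 months, at 14.4 against 2.40 CPM (2.58 ± 0.69, adjusted p = 0.00808). Of 7 factors known for epithelial to mesenchymal transition, 2 were lower in luminal cells at both ages, Snai2 and Snai3. Snai2 was at 50.5 CPM in basal young and 0.83 in luminal young cells. Snai3 was near the limit of detection, at 3.956 and 4.905 CPM in basal young and old cells. In luminal young and old cells it was at 0.0143 and 0, where 3 fragments give 1.22 and 1.58 CPM.

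In the annotation, Elf3, Grhl2 and Ovol1 overlap genes on the opposite strand. The strand setting of the counting is not given in the sources used here, so it is not known whether reads of these pairs were told apart.

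Junction and barrier genes, some of them known targets of these families, were split between the cell types. Of 37 tested junction and splicing genes, 18 passed as higher in luminal cells and 14 as lower at 3 months, and 19 and 10 did so at 24 months. Cldn3, a tight junction claudin, was higher in luminal cells (log2 5.45 ± 0.26, edgeR adjusted p = 8.01e-10 at 3 months), and Dsp, the plakin of desmosomes, was lower (-2.28 ± 0.11, adjusted p = 8.01e-10). Of 14 tested genes of the cornified envelope and stratified differentiation, 6 were lower in luminal cells at each age, and none was higher at 3 months and 1 at 24 months. Krt17 and Krt16, keratins of stressed or appendage epithelium, and Tgm1, the crosslinking enzyme of the envelope, were among those that were lower at both ages. Of 18 tested other epithelial transcription factors, 5 passed as higher in luminal cells at 3 months and 9 as lower. Trp63, the basal master regulator, was at 57.1 CPM in basal young and 0.0143 in luminal young cells, and Foxa1, a pioneer factor of the prostate, was lower in luminal cells (-1.73 ± 0.12, edgeR adjusted p = 4.03e-08).

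**Figure D4:**
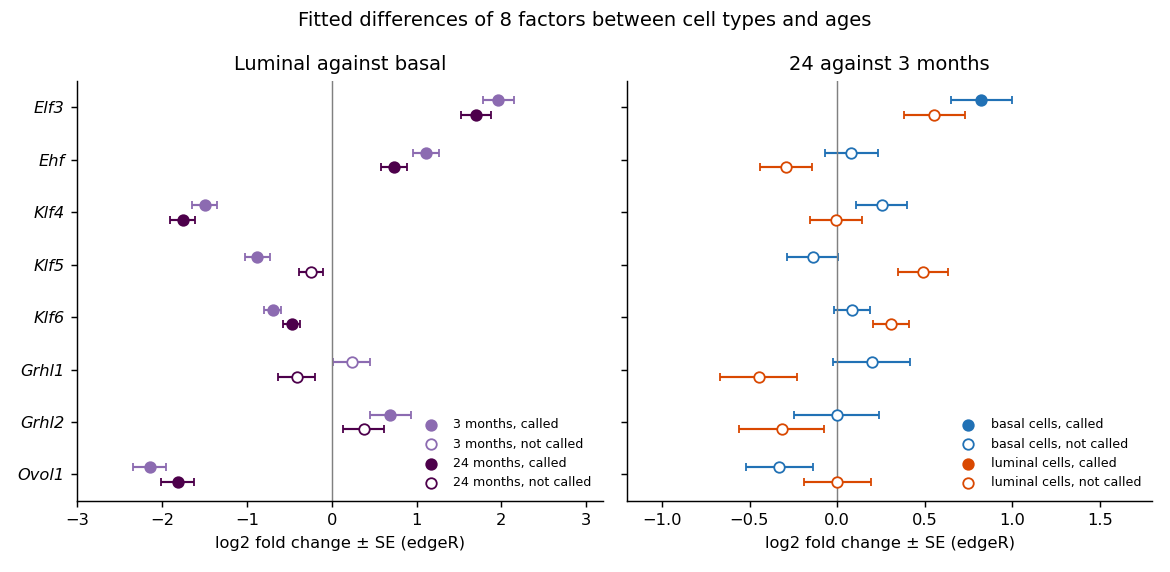
Fitted log2 fold changes of 8 factors with their SE (x axis) from edgeR, luminal against basal cells at each age (left) and 24 against 3 months in each cell type (right). Filled circles passed an adjusted p under 0.05 and open ones did not, and Grhl3 is left out because its fitted value depends on libraries at 0. The cell type differences of Elf3, Ehf, Klf4, Klf6 and Ovol1 are filled at both ages, and Elf3 in basal cells is the one filled circle for age.

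With age, 1 of the 9 factors passed in basal cells. Elf3 rose 1.77-fold from 48.8 ± 5.18 to 86.2 ± 17 CPM (SD, n = 3; log2 0.82 ± 0.17 SE, edgeR adjusted p = 0.0345), and each basal old library was above each basal young one. Over all tested genes 1.24% passed and 1.01% were higher. The call of Elf3 was close to its threshold: it was lost with another normalisation (RLE, adjusted p = 0.0684), with the basal libraries fitted alone (0.111) and on log2(TPM + 1) and log2(TPM + 0.1) (limma, 0.118 and 0.114). It was also lost without basal young replicate 1 or 2 (0.0787 and 0.0706) and without basal old replicate 1, 2 or 3 (0.216, 0.0772 and 0.0541), while the log2 change stayed between 0.58 and 0.88 in these fits. The libraries of the 2 ages did not overlap for 4 factors, Elf3 and Grhl3 higher and Klf5 and Ovol1 lower in old cells, as for 19% of all genes. For Grhl3 this rests on 1.09 to 2.23 fragments per young and 4.87 to 6.35 per old library. The 8 factors other than Elf3 had edgeR adjusted p of at least 0.447. The fitted changes of 7 of them, leaving out Grhl3, lay between -0.33 for Ovol1 and 0.26 for Klf4.

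Beside the rise of Elf3 in basal cells, the summed level of 13 luminal markers was 4850 to 5260 CPM in basal young and 5840 to 6180 in basal old libraries. None of these markers was at 0 in either group, and none passed the test. The higher sum was carried by Krt8 (2264 and 2715 CPM in young and old) and Krt18 (1754 and 2208), both abundant in basal cells. The other markers went both ways. Among them, Cldn3 (25.3 and 39.5), Defb50 (100.5 and 135) and Tmprss2 (19.1 and 41.1) lay higher in old cells. Cd24a (748.5 and 673.2), Tgm4 (103.9 and 80.8) and Pbsn (42.3 and 35.8) lay lower. The summed level of 12 progenitor and proximal luminal markers was 1410 to 1720 and 1690 to 2260 CPM, with none higher and 1 lower by the test, Prom1 (log2 -1.33 ± 0.20, edgeR adjusted p = 0.00481). The 30 immediate-early genes, of which 6 rose and 1 fell, summed to 20100 to 20900 CPM in young and 24000 to 27600 in old basal libraries. The part of these in the rise of Elf3 was not tested. Among junction genes, Cldn7 and Cldn4 rose with age in basal cells (log2 0.96 ± 0.17 and 0.49 ± 0.10, edgeR adjusted p = 0.0125 and 0.0317).

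In luminal cells none of the 9 factors passed with age in edgeR's test, against 1.65% of all genes. The smallest unadjusted p were, in this order, those of Klf5, Elf3, Klf6 and Grhl3, the last on at most 1 fragment per library. Klf5 was at 138 ± 25.6 CPM in young and 194 ± 26.3 in old cells (log2 0.49 ± 0.14, adjusted p = 0.127). Elf3 was at 191 ± 19.6 and 280 ± 56.6 CPM (0.56 ± 0.17, adjusted p = 0.162), and Klf6 at 971 ± 60.2 and 1203 ± 76.2 (0.31 ± 0.10, adjusted p = 0.21). For each of these 3 the lowest old library was above the highest young one. Ehf, Grhl1 and Grhl2 lay lower in old luminal libraries, again without overlap (log2 -0.29 ± 0.15, -0.45 ± 0.22 and -0.32 ± 0.24, edgeR adjusted p = 0.522, 0.499 and 0.784). The ages thus did not overlap for 6 of 9 factors, as for 18.3% of all genes. Klf4 and Ovol1 had fitted changes of -0.01 ± 0.15 and 0.00 ± 0.19.

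Other tools made calls here. DESeq2 called 3 of the factors in luminal cells: Klf5 (log2 0.50, adjusted p = 0.0295), Klf6 (0.32, adjusted p = 0.0226) and Grhl3 (adjusted p = 0.0219), the last on at most 1 fragment per library. edgeR on counts divided by the estimated reads per fragment called 2, Elf3 (0.57, adjusted p = 0.0131) and Klf5 (0.50, adjusted p = 0.0374). Both tools also called more genes over all: DESeq2 called 652, and edgeR on the divided counts 550 of the 11201 it tested. The main test called 235 of 14201.

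Several marker lists moved in luminal cells over the same ages. The 13 luminal markers summed to 16900 to 18300 CPM in young and 19400 to 20500 in old libraries. Of these, 1 rose by the test, Krt8 (log2 0.41 ± 0.09, edgeR adjusted p = 0.0304), and none fell. The 12 progenitor and proximal luminal markers summed to 8120 to 8850 CPM in young and 9600 to 12000 in old libraries, and 4 rose and none fell. The 12 basal markers summed to 983 to 1290 and 1600 to 2340 CPM, with 3 higher and none lower, while Krt5 was at 7.79 and 9.59. Of the 30 immediate-early genes 10 rose and none fell, and they summed to 10300 to 10800 and 11900 to 12300 CPM. The 10 fibroblast markers summed to 180 to 413 and 49.7 to 143 CPM, and the 8 smooth muscle markers to 100 to 136 and 23.1 to 73.3 CPM, with 3 of 7 tested lower. The 7 seminal vesicle genes summed to 149000 to 174000 and 133000 to 212000 CPM, and Svs1 was higher in old cells, at 2500 against 40.2 CPM (log2 5.96 ± 1.40, edgeR adjusted p = 0.0481). Of the markers in these lists, 2 of smooth muscle were at 0 in luminal old cells, and no other was at 0 over a whole luminal group. Their part in the levels of the factors was not tested. Of 37 junction genes, 5 rose in luminal cells and none fell, among them Cdh1 (log2 0.55 ± 0.11), Epcam (0.52 ± 0.12) and Cldn7 (0.75 ± 0.17), with edgeR adjusted p of 0.0249 to 0.0398. Sprr1a, an envelope precursor, rose from 538.4 to 1133 CPM (1.07 ± 0.18, adjusted p = 0.0058), and Cebpb, a factor of stress and differentiation, from 57.7 to 103.5 CPM (0.84 ± 0.12, adjusted p = 0.00198).

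The age responses of the 2 cell types were compared directly, and none of the 9 factors passed, against 0.817% of all genes. The smallest unadjusted p among them was that of Klf5. It was at 254 ± 10.5 CPM in basal young and 230 ± 8.55 in basal old libraries, each old one below each young one, while luminal old libraries were each above the luminal young ones. The difference of the responses was 0.63 ± 0.20 on the log2 scale (adjusted p = 0.22 in edgeR's test and 0.0261 with DESeq2). The differences of the other factors, leaving out Grhl3, lay between -0.64 ± 0.31 for Grhl1 and 0.33 ± 0.27 for Ovol1. For Elf3 it was -0.27 ± 0.24 (edgeR adjusted p = 0.763), so that its changes in basal and luminal cells were not told apart by this test.

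Over the 12 libraries, the genes whose levels were most like each factor's were found among 10184 tested genes with a mean of at least 5 TPM in a group. The measure was Pearson's r of log2 CPM, and the libraries share their cell type difference, so high values are common and carry no test. Elf3 was most like Trim25 (r = 0.985), a ubiquitin ligase of antiviral signalling, Clca3 (0.981) and Arl14 (0.978). Trim25 stood at 32.6, 47.3, 90.4 and 134.7 CPM in basal young, basal old, luminal young and luminal old cells. Ehf was most like Gcdh (0.973), Klf4 like Aff4 (0.99), Klf5 like Shb (0.976) and Klf6 like Spsb1 (0.986). Ovol1 was most like Id2 (0.991), an inhibitor of helix-loop-helix factors, Vezf1 (0.99) and Fgfr1 (0.985). Grhl2 was most like Ccno (0.959) and Grhl3 like Gpr3 (0.977). Grhl1, the factor that did not pass between cell types at 3 months, had the lowest best match, Il15ra (0.855).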

How the data were processed

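RNA of sorted prostate cells was made into KAPA Stranded mRNA-Seq libraries and read on a HiSeq sequencer, according to the labels' protocols. bcl2fastq 2.17, Bowtie2 2.1.0, RSEM 1.2.15 and the mm10 build are named in the submitters' processing notes. The sources used here do not give the sort gates. The deposited tables give RSEM expected counts and TPM per gene, per the file headers; FPKM were not used. Read copies were not removed in any step known here, so 1 fragment can stand for many reads.

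Expected counts were rounded. edgeR 4.0.16 (R 4.3.3) kept 14201 genes (filterByExpr, minimum count 10, minimum total 15), scaled them by TMM and fitted 1 mean per group over the 12 libraries, where the common coefficient of biological variation was 0.797. The quasi-likelihood test was run for 5 comparisons, Benjamini-Hochberg adjustment covered the tested genes, and genes were called at an adjusted p under 0.05. SE are those of the fitted log2 change, and SD are of normalised CPM over 3 libraries. Reads per fragment were estimated as the median count of genes longer than 500 bases that were seen with 8 or more reads in a single library within its group, and at all in no more than 3 others. A fold against a group near 0 puts 3 fragments into that group. Coordinates are from GENCODE M21 (GRCm38, the same assembly as mm10).

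Alternatives were RLE factors, DESeq2 1.42.0, no filter, only the groups compared, replicate numbers as a block, fragment-equivalent counts, limma 3.58.1 on log2(TPM + 1) and log2(TPM + 0.1), and leaving out each library. Counts were simulated for age in basal cells, with 200 of 14201 genes, drawn from the more abundant ones, changed 4-fold. The model called 200, 195 and 0 of them at coefficients of variation of 0.1, 0.3 and 0.797, with 10, 12 and 0 false calls. Each simulated gene had the same coefficient, whereas the fit of the data estimated a spread per gene and called 176 genes in this comparison. The simulation therefore does not give the power for the 9 factors. The 9 factors are named in each comparison, and up to 4 called genes per list by smallest adjusted p; the 3 most similar genes per factor were found by Pearson's r, of which those given include the first. Family shares name the leading genes, chosen after their values were seen. Not every gene picked by this rule is reported here. The factors and lists were chosen with earlier results of these data known.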

Additional observations from a re-analysis of the deposited data

Results flagged for a closer look

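Klf5 is given here because its libraries were ordered in opposite ways by age in the 2 cell types, although neither age difference passed (edgeR adjusted p = 0.776 in basal and 0.127 in luminal cells): each basal old library was below each basal young one, and each luminal old library was above each luminal young one. The difference of the log2 changes, luminal minus basal, was 0.631, with an adjusted p of 0.22 in edgeR's test of that difference. Groups of 3 libraries are too small for a test of single outlying libraries.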

How the results depend on the processing

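For the 45 differences of single factors, 669 alternatives were computed, of which 644 stayed on the same side of the threshold. The sign differed in 39 alternatives of 9 differences, none of which had passed (edgeR adjusted p of at least 0.44), and in 0 of the called ones. The cause of the changes was not tested. Among genes that changed with age in basal cells, 176 were called, 669 with DESeq2, 311 with fragment-equivalent counts, 103 on log2(TPM + 1) and 73 to 266 without single libraries; of the 9 factors, 1 was called, and 0 with RLE, with only the groups compared and on both TPM scales, and 0 to 1 without single libraries. In luminal cells, 235 genes were called, 652 with DESeq2, 550 with fragment-equivalent counts and 124 to 331 without single libraries, and of the factors 0, 3 with DESeq2 and 2 with fragment-equivalent counts. For the difference of the age responses, 116 genes were called, 536 with DESeq2 and 54 to 172 without single libraries, and of the factors 0, and 1 with DESeq2. The split of higher and lower calls moved from 144 and 32 to 85 and 53 with RLE (age in basal cells), from 2704 and 2637 to 2222 and 4068 on log2(TPM + 1) (cell types at 3 months), from 179 and 56 to 231 and 33 on log2(TPM + 0.1) (age in luminal cells) and from 60 and 56 to 78 and 48 with RLE (difference). The median of all genes moved by -0.46 at 3 months and -0.21 at 24 months on log2(TPM + 1), by -0.174 for age in basal cells and by 0.254 for the difference, and by 0.132 at 24 months and 0.111 for the difference with RLE. The deviations of same-numbered libraries correlated by -0.0302 to 0.0303 over all pairs of groups. Between luminal and basal cells at 3 months they lay at 0.0164 to 0.0303, above the other-numbered pairs at -0.0225 to -0.00347. The labels do not say that the numbers mark pairs, and the main fit did not take them as such. With the replicate block, 5131, 4900, 194, 273 and 127 genes were called in the 5 comparisons. Of the factors 8, 5, 1, 0 and 0 were called, and no call of a factor changed. Depth limits Grhl3 most, at 0 to 6.35 fragments per library. Grhl2 was at 10.3 to 23.6 in basal young, 16.1 to 57 in basal old and 25.3 to 39.1 in luminal old libraries. Elf3 was at 17.4 to 26.9 in basal young libraries, and Ovol1 at 16.8 to 25.9 in luminal ones.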
